A study of Mus musculus with 16 samples.

Results

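The libraries described here come from mouse ER-Hoxb8 cells that carried an empty vector, the control line of a study of the transcription factor ERG. ER-Hoxb8 cells are C57BL/6 progenitors of granulocytes and monocytes. An estrogen-regulated Hoxb8 blocks their differentiation, so the line carries a Hoxb8 construct in addition to its own Hoxb8 gene. All lines of the series share this construct. All 5 empty vector libraries of the 16 samples were taken, 1 for each of the histone marks H3K27ac, H3K9ac, H3K4me3, H3K4me1 and H3K27me3. The other samples were the same marks in lines with wild-type or P199L ERG and a pooled IgG control, and they were not analysed here. The profiles were made by ChIP-seq, the sequencing of DNA bound to immunoprecipitated histones, and describe 1 cell line with 1 library per mark. There was no replicate, so no p-value or standard deviation is given.

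Histone marks are chemical groups on histone tails that differ between active and silent genes. H3K4me3 sits at the starts of active and poised genes, H3K4me1 at enhancers and the flanks of promoters, and the acetylation marks H3K27ac and H3K9ac at promoters and enhancers in use. H3K27me3 is written by the Polycomb repressive complex over silent developmental genes, and its meeting with H3K4me3 at 1 promoter is often called bivalent. In granulocyte-monocyte progenitors the genes of the primary granules are in use, while genes of the late granules and of other blood lineages are low or silent.

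The deposited tables list regions, made by merging the peaks of the 3 lines for each mark, with a read count, a normalized read count and a call for each line. Positions are given as in those tables, on mm10. Normalized reads equal the count times 1 constant per library and are not divided by length. Rankings by reads and sums per gene below therefore grow with the length and number of regions. Density is given as normalized reads per kb where stated. Antibodies differ between marks, so levels were compared only within a mark. Reads in called regions numbered 15330949 for H3K27ac, 10834906 for H3K9ac, 21600101 for H3K4me3 and 16675070 for H3K4me1. H3K27me3 had only 779493, so its values are the least precise. Intervals are 95% exact Poisson intervals for reads and 95% Wilson intervals for shares, and cover counting error only.

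The marks differed in number, length and place of their regions. H3K4me1 was the most widespread, with 85594 called regions over 205 Mb and a median length of 1415 bases. H3K27ac had 69995 regions but a median of 488 bases, so it covered 59.6 Mb. H3K9ac had 45394 regions over 46.1 Mb and H3K4me3 30787 over 44.8 Mb. H3K27me3 had 7237 regions over 15.5 Mb. H3K4me3 and the acetylation marks were thus concentrated in short regions, and 2546 regions of H3K4me1 exceeded 10 kb against 51 of H3K27ac.

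Signal of H3K4me3 was concentrated at gene starts. Its regions within 1 kb of a protein-coding start were 35.9% of all but held 84.0% of its normalized reads. For H3K27ac the regions at starts were 17.3% and held 64.1% of the reads. H3K4me1 had 14.6% of its regions and 25.3% of its reads there. Density separated the marks in the same way. H3K4me3 regions at starts had a median of 649 normalized reads per kb against 81.7 elsewhere, and H3K4me1 regions had 63.6 against 56.3.

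**Figure D1:**
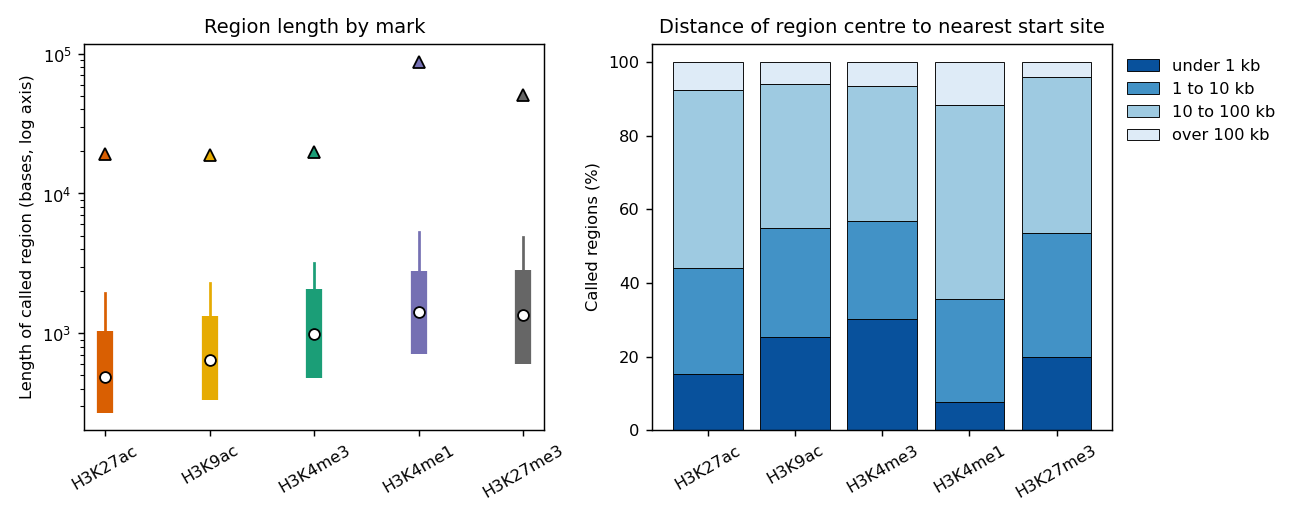
Left, length in bases (log axis) of the called regions of each mark in the empty vector line: bar, middle 50% of regions; line, up to the 90th percentile; circle, median; triangle, longest region. Right, share of called regions by distance of their centre from the nearest protein-coding start site. H3K4me1 has the longest region, of 87880 bases, and the smallest share within 1 kb of a start, 7.51%.

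The 5 H3K27ac regions with the most normalized reads lay at Hmga1, Brd2, Pim1, Irf2bp2 and Midn. The first spanned the start of Hmga1, which codes for an architectural chromatin protein, at chr17:27551414-27562514, with 14901 normalized reads (95% interval 14646 to 15159.8) over 11100 bases. Brd2, whose product reads acetylated histones, followed at chr17:34116399-34125428 with 14057 (95% interval 13809 to 14308). The kinase gene Pim1 had 13652 and Irf2bp2, a co-repressor gene, 12860.5. Midn, whose product sends nuclear proteins to the proteasome, came next with 12688 over 18006 bases. All 5 regions held a protein-coding start and overlapped called regions of H3K9ac, H3K4me3 and H3K4me1 and no H3K27me3 region. Per kb, Brd2 was the densest of these 5, at 1557, and Midn the sparsest, at 705.

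Length picked other loci. Among the longest H3K27ac regions, one covered Ctsd, the lysosomal protease cathepsin D, over 18431 bases, followed by that of Midn. A region of 17604 bases inside the tyrosine phosphatase gene Ptpre and one of 16316 bases inside Erg, at chr16:95447933-95464249, came next. The Erg region lay away from the start of the principal Erg transcript, which had none of the 5 marks within 1 kb. It did hold 3 other annotated starts of Erg transcripts. The matching H3K9ac region there was 15249 bases long, and 2 H3K4me3 regions overlapped it.

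By density, among regions of at least 500 bases, the first H3K27ac region was an intergenic stretch of 597 bases between Gm6020 and Csf2ra at chr19:61199560-61200157, with 9151 normalized reads per kb. This was 92.0 times the median density of H3K27ac regions, and the same place led the H3K9ac and H3K4me3 densities. Behind it came gene promoters. The splicing factor genes Smndc1 and Rbm39 had 3009.7 and 2584 per kb. The chromatin remodeller gene Arid1b had 2801 and Eif4enif1, which codes for a transporter of a translation factor, 2604.

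H3K9ac shared Pim1 and Hmga1 with H3K27ac among its first 5 regions. Its region at Pim1 held 7836 normalized reads (95% interval 7658 to 8017), and that at Setd1b, an H3K4 methyltransferase gene, 7824 (95% interval 7646 to 8005). The intervals of these 2 overlap, so their order is not resolved by counting. Arid1a, a subunit gene of the BAF remodeller, had 7231, the growth factor gene Vegfa 6992 and Hmga1 6945. Its longest regions lay at B3gnt2, a glycosyltransferase gene (18948 bases), and Egln3, a prolyl hydroxylase gene of the oxygen response (15647 bases). Gfi1, the repressor required for granulocyte formation, followed with 15420 bases. Erg and Zc3h12a, which codes for an RNA-degrading enzyme, came next.

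H3K4me3 was highest at Brd2, with 15293 normalized reads (95% interval 15046 to 15542) over 9143 bases. Tnrc18 followed with 13749.9 (95% interval 13516 to 13986). Tgif1, a co-repressor gene of TGF-beta signalling, had 11676, Vegfa 11557 and the ephrin gene Efna5 10580. Of these 5, 4 lay on chromosome 17. The broadest H3K4me3 regions were those of Egln3 (19715 bases), B3gnt2 (16785), Gfi1 (14414), Zbtb7b (12765) and Irf2bp2 (12752). The 100 longest H3K4me3 regions had a median of 544 normalized reads per kb, against 122 over all H3K4me3 regions. Of these 100, however, 89 lay within 1 kb of a start, and all H3K4me3 regions at starts had a higher median, 649. The broadest region was not among the densest. Egln3 had 329 normalized reads per kb, while Satb1, a chromatin organiser gene with a region of 2843 bases, had 1998. Hjurp, whose product loads the centromeric histone, had 2177 over 3382 bases.

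H3K4me1 formed long blocks inside or between genes, and the 5 longest held no protein-coding start. The longest ran for 87880 bases inside Zmiz1, a transcriptional co-activator gene, at chr14:25461266-25549146, with 17266 normalized reads (95% interval 17009.9 to 17526). It overlapped 43 H3K27ac, 36 H3K9ac and 14 H3K4me3 regions. The next were inside Etv6, an ETS repressor gene of blood stem cells (69319 bases), and in the interval between Haao and Zfp36l2, an mRNA-decay factor gene (63176 bases). Ccdc88c (61561 bases) and the homeobox gene Cux1 (60464 bases) completed them. None of these 5 overlapped H3K27me3. The region with the most reads was another, of 12378 bases within the centrosome gene Sfi1, with 19007 normalized reads. It was 26.8 times as dense as the median H3K4me1 region, whereas the Zmiz1 block had 196 per kb. Further H3K4me1 regions within Sfi1 had 986 and 981 per kb, and a region overlapping Hjurp had 517. The IgG control was not analysed here, so background at such dense places was not checked.

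H3K27me3 was highest over Hox genes. A region of 48832 bases at chr15:102944824-102993656 held the starts of Hoxc8, Hoxc9, Hoxc10 and Hoxc11 and 2509 normalized reads (95% interval 2418 to 2603). Its neighbour at chr15:102994369-103045304 held Hoxc4, Hoxc5 and Hoxc6, with 2368 reads over 50935 bases. Nkx2-5, the cardiac homeobox gene, had 1746, and Hoxb13, a posterior Hox gene, 1299. Vax2, a homeobox gene of the eye, was the last of the 5 longest, with 26294 bases. Density among the 4 strongest of these ranged from 46.0 per kb at Hoxb13 to 62.4 at Nkx2-5. A region of another kind stood first by reads. A region of 257 bases between Pak3 and Chrdl1 on chromosome X had 2871 reads, 231 times the median density, and no other mark. By density among regions of at least 500 bases, the first held the start of Coil, which codes for the Cajal body protein coilin, with 198 per kb over 3079 bases and again no other mark.

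Summed over all regions that GREAT, which links a region to its neighbouring genes, gave to a gene, the leaders were genes with many regions. Irf2bp2 had the largest H3K27ac sum, 46739 normalized reads (46286 to 47196) in 150 regions, against a median of 1080.0 over 14755 genes with any region. Zfp36l2 had 40661 in 111 regions and Cebpb, a C/EBP factor of emergency granulopoiesis, 31921 in 88. Rreb1, a zinc finger factor gene, had 31681 in 160. The same 4 genes, Gse1, Haao, Rreb1 and 1600014C23Rik, stood among the first 10 of all 4 active marks. GREAT can give a region to both neighbours, and Haao, a tryptophan breakdown enzyme gene, shares its regions with Zfp36l2, as 1600014C23Rik does with Vegfa. Per kb, Hmga1 (518) and Pim1 (491) were denser than Irf2bp2 (277).

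For H3K4me3 the first gene was Gse1, a gene of a co-repressor complex, with 18926 normalized reads (18652 to 19204), followed by the cyclin-dependent kinase inhibitor gene Cdkn1a with 18266 and Hmga1 with 18176. The intervals of Cdkn1a and Hmga1 overlap. At the start of the principal Cdkn1a transcript H3K4me3 was only 13.5, so most of the Cdkn1a sum came from other regions that GREAT gave to it. For H3K4me1 the first genes were Zfp36l2 with 45396, Haao with 44409.6 and Gse1 with 41709. For H3K27me3 Hoxc4 led with 4123 in 17 regions. Pax2, a kidney factor gene, had 2984, Tlx1, a spleen factor gene, 2729 and Lbx1, a factor gene of migrating muscle precursors, 2601. Zbtb46, a dendritic cell factor gene, had 2459.

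The active marks overlapped widely, and H3K27me3 mostly stood apart. Of H3K27ac regions, 93.4% (93.2 to 93.6) overlapped H3K4me1 by at least 1 base, 50.0% (49.6 to 50.4) H3K9ac and 40.5% (40.2 to 40.9) H3K4me3. The H3K27ac regions with H3K9ac held 93.2% of all H3K27ac reads, and those without were shorter, with a median length of 302 bases against 966. Of H3K9ac regions, 85.1% (84.8 to 85.4) overlapped H3K27ac, and of H3K4me3 regions 84.7% (84.3 to 85.1) overlapped H3K9ac. H3K4me1 went its own way more often, with 37.1% (36.7 to 37.4) of its regions overlapping H3K27ac. Alone, without any other mark, were 54.8% of H3K4me1 and 55.1% of H3K27me3 regions, against 2.82% of H3K27ac regions.

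H3K27me3 met H3K4me1 at 44.7% (43.6 to 45.8) of its regions, H3K4me3 at 23.9% (23.0 to 24.9) and H3K27ac at 11.9% (11.2 to 12.7). Its regions with H3K4me3 were longer, with a median of 2907 bases against 1003 without. Counted in bases, 231 Mb or 8.46% of the chromosomes lay under some mark. H3K4me1 alone took 142 Mb of them, the 4 active marks without H3K27me3 20.2 Mb, H3K27ac with H3K4me1 only 19.5 Mb and H3K27me3 alone 11.0 Mb. All 5 marks shared 0.451 Mb.

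At gene starts the marks combined into a few states. Starts of 21911 protein-coding genes of the GENCODE annotation were taken with 1 kb on either side. H3K4me3 with acetylation and without H3K27me3, called the active state below, was found at 10099 genes (46.1% of all). No mark was found at 8016 (36.6%). H3K4me3 with H3K27me3, whatever the acetylation, was found at 1213 (5.54%) and H3K27me3 without H3K4me3 at 940 (4.29%). H3K4me1 or acetylation only was found at 1475 (6.73%), and H3K4me3 with neither acetylation nor H3K27me3 at 168 (0.767%). This last state was the rarest, and the most frequent single combination was all 4 active marks without H3K27me3, at 8404 genes.

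Values at a start are those of the whole regions that reach its window, and they differed by state. In the active state the median H3K4me3 at the start was 1924 normalized reads over 2653 bases, against 378 over 1257 with H3K27me3 and 46.8 over 594 where acetylation and H3K27me3 were both absent. Among starts with any acetylation, H3K27ac and H3K9ac came together at 98.4% in the active state and at 78.4% (716 of 913) where H3K4me3 met H3K27me3. Where only 1 acetylation mark accompanied H3K4me3 and H3K27me3, it was H3K9ac at 189 genes and H3K27ac at 8. These states were called on a population of cells, so marks on the same start may lie in different cells, which cannot be told apart here. The starts with the most H3K27me3 in this mixed state were those of Hoxb13, Vax2, Scube3, Foxf1 and Onecut3, and without H3K4me3 those of Hoxc8, Hoxc9, Hoxc10 and Hoxc11, which share 1 region.

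Across genes with regions of both marks, summed H3K27ac and H3K9ac were correlated (Spearman's rho 0.90 over 14024 genes), as did H3K9ac and H3K4me3 (rho 0.89). H3K27ac and H3K4me1 had rho 0.55 by sum but -0.14 per kb of covered length. H3K27me3 was nearly unrelated to H3K27ac, with rho -0.07 over 4320 genes. These are descriptions across genes of single libraries. Genes are not independent replicates, and neighbours share regions.

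The label of the line is myeloid progenitors, and its marker genes were read against the 46.1% of all genes in the active state. Of 12 primary granule genes, 11 were in the active state, and of 22 progenitor transcription factor genes 18. Of 12 growth factor receptor genes, 10 were active, of 14 monocyte and macrophage genes 10 and of 18 late neutrophil granule genes 13. The active state was thus more frequent than among all genes in each of these 5 lists. All 21 housekeeping, 25 ribosomal protein and 23 chromatin enzyme genes listed were active. Of 9 liver and 10 neuron genes none was active, and of 12 erythroid genes 3 were, among them Klf1 and Tfrc, while the globin genes Hba-a1, Hbb-bs and Hbb-bt had no mark at their starts. Of 15 T and NK cell genes, 2 were active (Cd28 and Thy1).

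**Figure D2:**
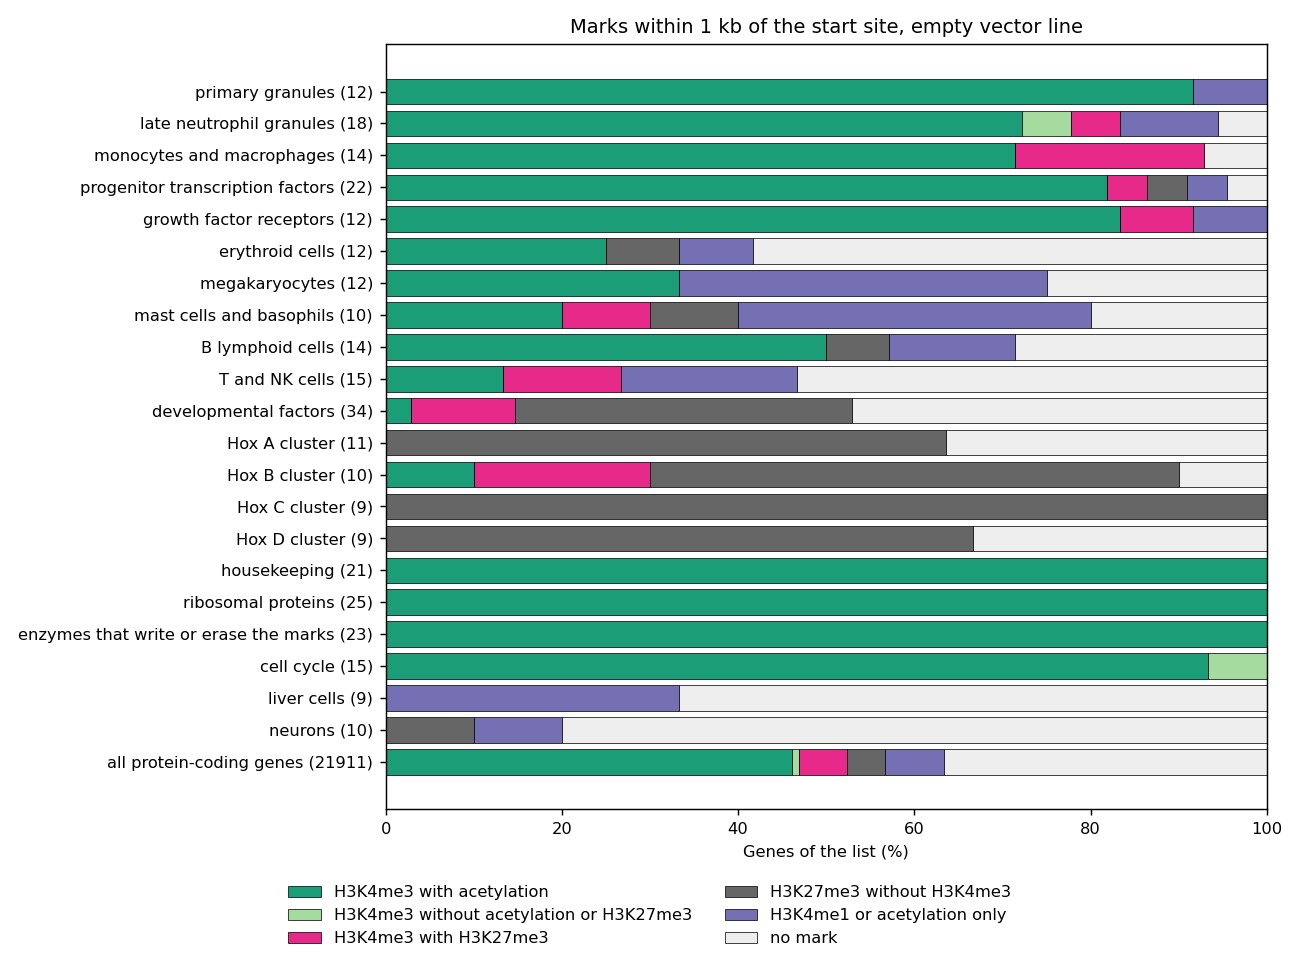
Share of the genes of each list (number in brackets) whose start site, with 1 kb on either side, carried each combination of marks in the empty vector line. The active state covers 91.7% of the primary granule genes and 46.1% of all protein-coding genes, and H3K27me3 without H3K4me3 fills the Hox C bar.

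The list of primary granule genes holds the proteases and peroxidase of azurophil granules with other genes such as Srgn, a granule proteoglycan gene, and Calr, a chaperone gene. Mpo (myeloperoxidase) had 8004 normalized reads of H3K27ac (7817 to 8194) in 21 regions, at percentile 97.4 of genes with H3K27ac. Prtn3 (proteinase 3) had 9193 in 1 region of 12941 bases, and Elane (neutrophil elastase) 1401. At the starts of these neighbours on chromosome 10 H3K4me3 was 5564 for Prtn3 and 1065 for Elane. Ctsg (cathepsin G) had 3104 at its start. The median H3K27ac sum of the list was 1767, against 372 over all protein-coding genes, with genes without a region taken as 0.

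Some late granule genes in the active state had little signal. Ltf (lactoferrin) had 25.3 normalized reads of H3K27ac and 21.8 of H3K4me3 at its start, against 583 of H3K4me1. Camp (cathelicidin) had 485, 117 and 1445 of the same marks. For both, the H3K4me3 value was far below the median of active starts, 1924. Fcnb, which codes for the lectin ficolin B, led this list with an H3K27ac sum of 4548. The list median of H3K4me1, 1797, exceeded the 447 of all genes, while its median of H3K4me3, 401, was below their 741.

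Several granulocyte and progenitor factor genes had large H3K27ac sums. Cebpa, needed to form granulocyte-monocyte progenitors, had an H3K27ac sum of 15465 (15205 to 15729), Myb 14821, Gfi1 14066 and Spi1, which codes for PU.1, 10991. Cebpe, the factor gene of late granules, had 7927. Irf8, the monocyte factor gene, differed. It had 1521 of H3K27ac but 12931 of H3K4me1, at percentile 98.9, and its start carried H3K4me3 (607) with a small H3K27me3 region (29.9). Csf1r, the monocyte growth factor receptor, also had much H3K4me1 (5230.5) and little H3K4me3 (333). Per kb of covered H3K27ac the order was Spi1 451, Cebpa 440.3, Gfi1 371 and Irf8 93.4.

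Factors of stem cells were mixed. Gata2 had 7509.7 of H3K27ac and 10841 of H3K4me3, and Runx1 and Fli1 had H3K27ac sums of 12509 and 12589. Meis1, a Hox partner, had 3792 of H3K4me3 at its start but 299.9 of H3K27ac. Hoxa9 had no region of H3K27ac, H3K9ac or H3K4me3, and its start lay in an H3K27me3 region of 11424 bases. Gata1, the erythroid factor gene, had 114 of H3K27ac and no H3K4me3. The stem cell receptor gene Kit had 4069 of H3K4me3 at its start and Flt3, the lymphoid-primed progenitor receptor, 723.

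Some B lymphoid genes stood in the active state, 7 of 14, close to the share among all genes. Ebf1, the B cell factor gene, had 3518 of H3K4me3 over 4919 bases at its start with 234 of H3K27ac. Igll1, a surrogate light chain gene, had an H3K27ac sum of 2631. Cd79a, which codes for a chain of the B cell receptor, had 49.4 at its start out of a sum of 3039, so most of its sum came from another region that GREAT gave to it. Pax5, which fixes B cell identity, had no H3K27ac, H3K9ac or H3K4me3 region, but H3K4me1 (378) and H3K27me3 regions (324). The Cr2 sum of H3K27ac, 3929.5, came from 1 region of 399 bases outside the gene, at 99.0 times the median density. Likewise 5463 of the 9484 of Csf2ra came from the dense stretch on chromosome 19.

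**Figure D3:**
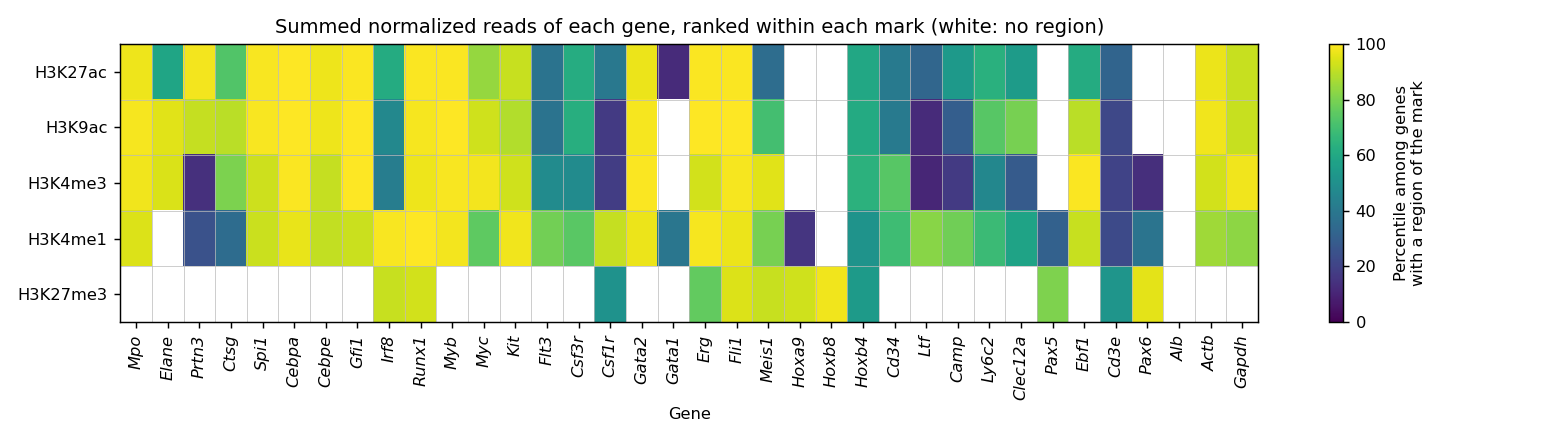
Percentile of the summed normalized reads of 36 genes (columns) for each mark (rows) in the empty vector line, among all genes with a region of that mark; white cells have no region. Cebpa and Gfi1 lie above percentile 99 for both acetylation marks, Hoxa9 and Hoxb8 are white there, and Alb has no region of any mark. The active regions on Hoxb8 described in the text are assigned to Hoxb7.

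Promoter sequence differed between states. RefSeq promoters (GRCm38.p6, 250 bases before to 50 after the start) were matched by symbol and position for 15042 of the 21911 genes. Median GC content was 61.3% in the active state, 66.3% with H3K4me3 and H3K27me3, 60% with H3K27me3 without H3K4me3 and 49.3% with no mark. The ratio of observed to expected CpG had medians of 0.797, 0.762, 0.558 and 0.243 in the same order. The ETS motif CCGGAAGT, on either strand, was in 10.4% (9.78 to 11.1) of active promoters, 1.99% of those with H3K4me3 and H3K27me3 and 1.04% of unmarked ones, and in 6.00% of all. The TATA box sequence TATAAA, counted at any position and on either strand, went the other way. It was in 6.04% of active and 21.2% of unmarked promoters, and 11.4% of all. GC content differs between the states, and its part in the motif shares was not tested.

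Granule gene promoters held few CpGs. Their medians of observed to expected CpG were 0.275 for 10 primary and 0.157 for 17 late granule promoters, near the 0.243 of unmarked ones. Low medians were also found for the erythroid (0.167), megakaryocyte (0.161), mast cell and basophil (0.169) and liver (0.234) lists. The PU.1 motif GAGGAAGT was in 4 of the 10 primary granule promoters and 3.26% of all. The C/EBP motif TTGCNNAA was in 8 of 17 late granule promoters and 9.63% of all, and the RUNX motif TGTGGT in 14.4% of all. TTGCNNAA was not particular to granule genes, as 5 of 8 liver promoters and 13.2% of unmarked promoters held it. A match is a description of letters, not of binding.

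Promoters from RefSeq (GRCm38.p6) of 6 genes show these kinds of start, 5′ to 3′ on the strand of the gene, with matches to the 5 motifs on either strand in capitals. Brd2 (chr17:34122558-34122857, minus strand) has the most H3K4me3 at its start. Mpo (chr11:87793534-87793833, plus strand) and Elane (chr10:79886062-79886361, plus strand) are primary granule genes with a PU.1 motif. Ltf (chr9:111019042-111019341, plus strand) is a late granule gene with a C/EBP and a RUNX motif. Nkx2-5 (chr17:26841516-26841815, minus strand) and Hoxb8 (chr11:96281655-96281954, plus strand) lie under H3K27me3.
Brd2: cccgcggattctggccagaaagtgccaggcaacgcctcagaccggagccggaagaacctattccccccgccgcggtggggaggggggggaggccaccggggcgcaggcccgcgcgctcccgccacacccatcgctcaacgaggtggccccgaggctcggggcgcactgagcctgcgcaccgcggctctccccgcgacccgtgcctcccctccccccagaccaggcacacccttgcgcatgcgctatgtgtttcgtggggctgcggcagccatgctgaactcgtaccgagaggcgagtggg
Mpo: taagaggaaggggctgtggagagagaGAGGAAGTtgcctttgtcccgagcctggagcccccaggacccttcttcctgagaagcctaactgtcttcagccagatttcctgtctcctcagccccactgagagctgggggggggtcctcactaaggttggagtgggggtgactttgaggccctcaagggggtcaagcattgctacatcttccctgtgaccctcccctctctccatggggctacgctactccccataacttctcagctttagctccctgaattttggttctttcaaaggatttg
Elane: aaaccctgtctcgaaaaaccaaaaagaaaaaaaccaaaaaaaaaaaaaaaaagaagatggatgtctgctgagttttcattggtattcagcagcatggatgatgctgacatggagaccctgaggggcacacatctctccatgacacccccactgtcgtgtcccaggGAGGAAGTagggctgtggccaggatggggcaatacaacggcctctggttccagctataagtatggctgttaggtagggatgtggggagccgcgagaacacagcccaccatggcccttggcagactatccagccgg
Ltf: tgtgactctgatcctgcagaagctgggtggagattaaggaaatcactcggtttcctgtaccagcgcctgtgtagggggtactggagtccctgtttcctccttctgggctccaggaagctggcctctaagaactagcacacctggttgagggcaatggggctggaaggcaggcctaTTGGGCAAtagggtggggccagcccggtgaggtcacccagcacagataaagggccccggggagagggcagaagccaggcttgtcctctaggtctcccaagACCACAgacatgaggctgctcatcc
Nkx2-5: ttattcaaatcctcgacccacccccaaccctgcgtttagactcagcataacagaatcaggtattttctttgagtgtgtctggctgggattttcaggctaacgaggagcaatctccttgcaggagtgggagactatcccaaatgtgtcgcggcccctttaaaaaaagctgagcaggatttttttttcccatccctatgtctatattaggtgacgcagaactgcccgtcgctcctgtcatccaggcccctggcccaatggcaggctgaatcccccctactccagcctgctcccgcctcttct
Hoxb8: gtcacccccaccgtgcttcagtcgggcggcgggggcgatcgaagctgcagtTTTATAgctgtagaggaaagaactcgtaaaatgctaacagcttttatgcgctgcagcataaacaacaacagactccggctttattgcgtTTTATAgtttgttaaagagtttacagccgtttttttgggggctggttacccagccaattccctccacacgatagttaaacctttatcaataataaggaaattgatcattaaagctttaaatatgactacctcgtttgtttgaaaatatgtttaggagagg

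The Brd2 promoter has 32 CpGs and 72.3% GC and none of the 5 motifs. Those of Mpo, Elane and Ltf have 2, 6 and 4 CpGs. At these starts H3K4me3 was 15293 for Brd2, 5694 for Mpo, 1065 for Elane and 21.8 for Ltf. The Hoxb8 promoter has 13 CpGs and 2 matches to TATAAA on the opposite strand, and that of Nkx2-5 has 9 CpGs and no motif.

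Polycomb marking covered most of the Hox genes and many developmental factors. H3K27me3 without H3K4me3 was found at 9 of 9 Hox C starts, 7 of 11 Hox A, 6 of 9 Hox D and 6 of 10 Hox B starts, against 4.29% of all genes. Over the whole clusters it covered 95.9% of Hox C, 46.2% of Hox B (without Hoxb13), 40.9% of Hox A and 35.0% of Hox D. No H3K27ac, H3K9ac or H3K4me3 region was called inside Hox C. Hox B held the most active regions, with 5 H3K4me3 and 13 H3K27ac regions, or 3 and 11 without those on the coding parts of Hoxb8 described below, a count added after seeing the data. Hoxb4, a factor of stem cell renewal, had 1351 of H3K4me3 at its start and no H3K27me3 there.

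Of 34 developmental factor genes outside the clusters, 13 carried H3K27me3 without H3K4me3, 4 both (Foxa1, Neurog2, Pax2 and Wnt1) and 16 no mark. Pax6, the eye and brain factor gene, had 692 normalized reads of H3K27me3 over 16114 bases at its start. In this list 27 of 34 genes had some H3K27me3 region by GREAT, with a median sum of 420.1, against 5302 of 21911 protein-coding genes.

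Hoxb8 showed an unusual layout. An H3K27me3 region of 19833 bases covered the gene, with 1084 normalized reads (1024 to 1146). Inside it H3K27ac, H3K9ac and H3K4me3 each had 2 short regions, and each of these held 1 coding part of the 2 Hoxb8 exons (chr11:96282963-96283386 and chr11:96284163-96284467) whole, with 73 to 101 bases to spare at each end. Apart from these margins, none of the 3 marks was called in the intron between them. Over the first coding part H3K27ac had 1214 normalized reads (1142 to 1290.0), H3K9ac 650.4 and H3K4me3 853. Their densities per kb, 2051, 1119 and 1389, were above the medians of regions at gene starts, 396, 295 and 649. Over the second part the densities were 699, 577 and 807. The line carries a Hoxb8 construct, and reads from its coding sequence and from the chromosomal gene cannot be told apart in these tables. The call of H3K4me3 at the Hoxb8 start rests on the edge of the first of these regions, which reaches into the 1 kb window.

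**Figure D4:**
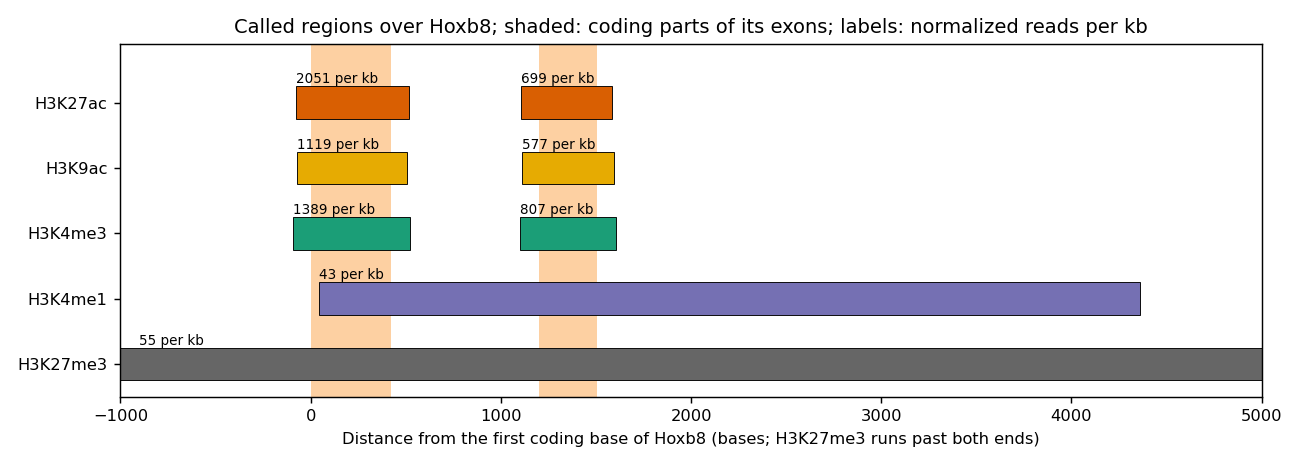
Called regions of each mark (rows) over Hoxb8, by distance in bases from its first coding base, with the coding parts of both exons shaded and normalized reads per kb beside each region. The regions of H3K27ac, H3K9ac and H3K4me3 sit on the coding parts, while H3K4me1 (43.0 per kb) and H3K27me3 (54.7 per kb) run across the intron.

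Chromosome 17 had the highest density of the 4 active marks at active starts, which touches the rankings above. At active starts its median H3K4me3 density was 1.39 times that of all autosomes, with the other autosomes between 0.884 and 1.04. The values were 1.25 for H3K27ac (0.875 to 1.10 on the others), 1.30 for H3K9ac (0.867 to 1.03) and 1.42 for H3K4me1 (0.825 to 1.15). For H3K27me3, over regions of at least 1 kb, the ratio was 1.14, with the others between 0.944 and 1.05. Over all H3K27ac regions of at least 1 kb chromosome 17 was not highest, at 1.14 with the other autosomes up to 1.19. Of the 100 densest H3K4me3 regions, 67 lay on chromosome 17, which holds 5.45% of H3K4me3 regions. Hmga1, Brd2, Pim1, Vegfa, Tgif1, Efna5, Zfp36l2 and Nkx2-5 all lie there. Without this chromosome, 2 of the first 5 H3K27ac regions by reads remained, those of Irf2bp2 and Midn, and 1 of the first 5 H3K4me3 regions, that of Tnrc18.

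At active starts chromosome X lay below the autosomes, with ratios of 0.522 for H3K4me3, 0.588 for H3K9ac, 0.600 for H3K27ac and 0.752 for H3K4me1. Over H3K27ac regions of at least 1 kb its ratio was instead 1.14. Y-linked Kdm5d, Uty, Eif2s3y and Ddx3y had H3K4me3 regions near their starts with 317, 536, 570 and 627 reads, and Xist had no region of any mark. DNA content of the line was not measured here, and its part in the chromosome 17 values was not tested.

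**Figure D5:**
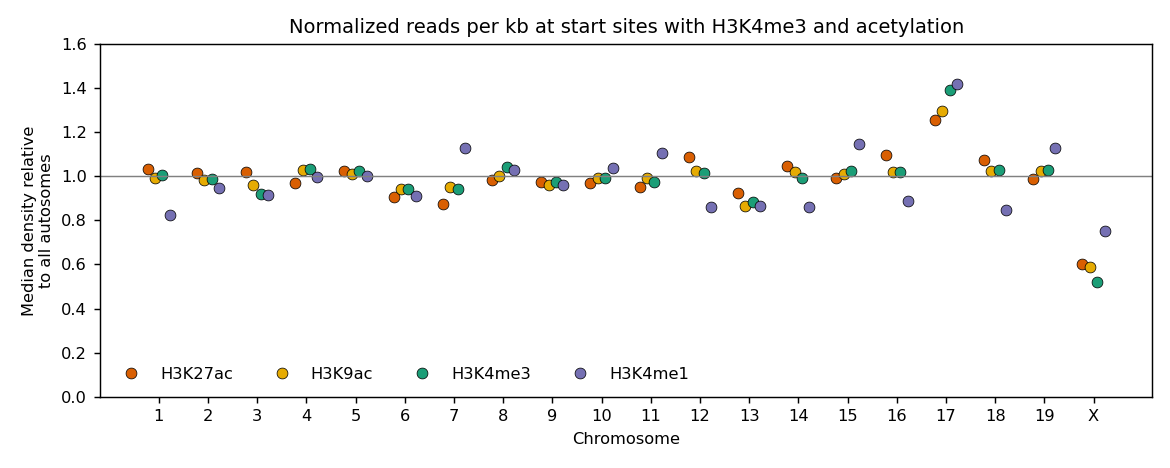
Median normalized reads per kb at start sites with H3K4me3 and acetylation, by chromosome, relative to the median of all autosomes (line at 1), for the 4 active marks of the empty vector line. Chromosome 17 is highest for each mark, at 1.25 to 1.42, and chromosome X lowest, at 0.522 to 0.752.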

How the data were processed

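The authors trimmed reads (Cutadapt) and aligned them to mm10 (Bowtie). MACS2 gave peaks for each library. Peaks of the 3 lines were then joined for each mark, and GREAT linked the regions to genes. The deposited call column says in which lines a region was called. The treatment of duplicate reads is not given in the sources used here. The deposited read counts are whole numbers per merged region. The deposited normalized signal is the count times 1 constant made by the authors (0.880 to 1.15 by library), whose origin is not given in the sources used here. Region ends come from the peaks of all lines, and positions are printed as in the tables. Only regions called in the empty vector library were used.

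Python 3.11.15 with pandas 2.3.3 gave sums per gene, overlaps of at least 1 base and states of start sites (GENCODE vM21, principal transcript, 1 kb on either side). The code was tested on simulated intervals. Named genes are those of the 5 regions with the most reads, the greatest length or density per mark, the 10 genes with the largest sum per mark, the first 3 of each list and 36 fixed genes. For the Hox and developmental lists the first 3 by H3K27me3 were added. Other genes are named to identify small counts or leading start sites, and were chosen after their values were seen. Some genes that the rule picks are not reported here. Of 318 genes in 21 lists, 316 matched the annotation. Members, lists and rules were chosen with earlier results of these data known. Alternatives used all merged regions, regions without the lowest 25% by reads, a larger overlap, windows of 2 kb and 500 bases, and density. Leaving out chromosome 17 or regions made of repeats, and another choice of start, were added after the data were seen.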

Additional observations from a re-analysis of the deposited data

How the results depend on the processing

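Of 148 alternative values, 115 stayed within the range set for them and 33 did not. Requiring an overlap of at least 50% of the shorter region gave 89.1% of H3K27ac regions with H3K4me1, 49.0% with H3K9ac, 81.2% of H3K4me3 regions with H3K27ac, 20.3% of H3K27me3 regions with H3K4me3 and 34.1% of H3K4me1 regions with H3K27ac. With all merged regions, H3K27ac with H3K9ac was 44.4%, H3K4me3 with H3K27ac 82.3% and H3K27me3 with H3K4me3 14.5%. Without the 25% of regions with the fewest reads these 5 overlaps were 92.6%, 53.7%, 84.6%, 27.2% and 39.3%.

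The gene rankings depended most on the measure. By density per kb, 0 of the first 10 genes remained for each of the 5 marks. With regions at the start only, 3 remained for H3K27ac, 3 for H3K9ac, 2 for H3K4me3, 0 for H3K4me1 and 3 for H3K27me3. Without chromosome 17, 5 remained for H3K27ac, H3K9ac and H3K4me3 and 6 for H3K4me1. Of the first 5 regions by reads, 2 remained for H3K27ac and H3K9ac, 1 for H3K4me3 and 3 for H3K4me1, and of the 5 densest 3 for H3K4me3 and 1 for H3K27me3. The numbers of genes in each start site state stayed within 1.5 times under the alternatives run for them. So did the counts checked for the primary granule, late granule, progenitor factor, B lymphoid, T and NK, megakaryocyte, erythroid and developmental lists. The other lists were not run under alternatives. Leaving out chromosome 17 was chosen after seeing the data.

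No paired analysis was possible because each mark had 1 library and no lines were compared. Counting intervals are narrow for the active marks and leave out variation between cultures and immunoprecipitations, which 1 library cannot show. The H3K27me3 library limits the calls of H3K27me3 at single starts. Levels of different marks cannot be set against each other. Background at the densest regions of each mark was not checked, as the IgG control was not analysed.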

Other observations

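Gene groups listed after the data were seen fill in the picture of the line. Of 21 immediate early genes, which respond to growth signals within minutes, 17 were in the active state, against 46.1% of all protein-coding genes, and Egr2, Egr3 and Btg2 carried H3K4me3 with H3K27me3. Their median H3K27ac sum was 5344, against 372 over all protein-coding genes. Among 8 genes of the SOCS family, which dampen cytokine signalling, 6 were active, while Socs1 and Socs2 carried H3K4me3 with H3K27me3. Socs2 had 1680.1 normalized reads of H3K4me3 and 98.5 of H3K27me3 at its start.

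Of 7 genes of the MHC class II pathway, which presents antigen, 2 were in the active state (H2-DMa and H2-DMb1), against 46.1% of all protein-coding genes. The H2-DMa start lies in the same H3K4me3 region as that of Brd2, so its value is shared. Ciita, the master regulator of class II genes, had no mark at its start. Of 15 interferon response genes 12 were active. Their median H3K27ac sum was 326, below the 372 of all protein-coding genes. Their medians of H3K9ac (522 against 329), H3K4me3 (1352 against 741) and H3K4me1 (719 against 447) were above those of all genes. Of 17 imprinted genes 6 were active, or 35.3%, near the share of all genes. Plagl1 carried H3K4me3 with H3K27me3, Mest carried H3K27me3 without H3K4me3, and Peg10 had 924 normalized reads of H3K4me3.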
